A study of Mus musculus with 18 samples.

Results

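A set of 10 genes that the transcription factor p53 is known to activate, Cdkn1a, Mdm2, Aen, Ccng1, Phlda3, Gdf15, Trp53inp1, Zmat3, Eda2r and Sesn2, was followed across cultured mouse alveolar type 2 cells in which Wnt signalling had been changed. They were chosen by name as p53 targets, and make up 10 of the 52636 genes in the files. All 10 had counts in each of the 18 libraries and passed the filter on low counts. Counts ran from 4 to 182 per library for Eda2r and from 167 to 9817 for Gdf15.

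Alveolar type 2 cells are the epithelial cells of the lung that make surfactant and renew the alveolar lining, and Wnt signalling helps to keep them in that state. The cells were kept for 19 days with CHIR99201, which the labels call a Wnt agonist, and the treatments then ran for 8 to 12 h, with 3 libraries in each of 6 groups. Each treatment contained LGK974, an inhibitor of Porcupine that stops cells from secreting their own Wnt proteins. CHIR99201 was replaced with Wnt protein, with an agonist of the receptor Frizzled 5 (FZD5 agonist) or with an agonist of Frizzled 6 (FZD6 agonist). The references were CHIR99201 itself (CHIR) and its withdrawal for 24 h or 48 h. How long CHIR99201 had been absent before each ligand is not given, so the ligands were set against both withdrawal times. Strain and age of the mice are not given here. The labels do not tell whether replicates came from separate cultures or animals. Each p-value therefore sets a difference only against the spread among these libraries, and that spread may be technical. In bulk RNA, fewer cells of a type and less RNA per cell cannot be told apart.

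p53 is held at a low level by the ubiquitin ligase Mdm2 and its relative Mdm4, and accumulates after DNA damage or other stress, when kinases such as Atm, Atr and Chek1 act on it. It then binds pairs of decamers near its targets, which stop the cell cycle, repair DNA or lead to cell death. Mdm2 is a target as well, which closes a negative feedback loop. Several targets also answer to other regulators: Gdf15 and Sesn2 are activated by ATF4, the transcription factor of the integrated stress response.

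The promoters are shown to place the p53 decamer pair, known from many p53 targets, relative to the annotated starts. RefSeq windows on GRCm38.p6, from 250 bases before to 50 bases after a start, were present for 8 of the 10 genes, in 11 windows. Both strands were searched for the 20-base decamer pair without a spacer, with the invariant C and G of each decamer required and up to 3 mismatches elsewhere. Cdkn1a, Ccng1 and Aen held a match, at 1, 1 and 3 mismatches. The share of all 32851 RefSeq windows with a match was 0.067% at up to 1 mismatch and 1.38% at up to 3. In the sites, written on the gene's strand, capitals mark the core of each decamer.
Cdkn1a, chr17:29090928-29090947, plus strand, starting 51 bases before the start: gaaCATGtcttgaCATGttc
Ccng1, chr11:40755462-40755481, minus strand, starting 195 bases before the start: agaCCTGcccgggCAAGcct
Aen, chr7:78895937-78895956, plus strand, starting 10 bases after one annotated start and 121 bases before another: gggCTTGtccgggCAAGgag

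The Cdkn1a site has the core letters CATGNNNNNNCATG, which 0.712% of windows hold. No match at up to 3 mismatches was found in the windows of Mdm2, Phlda3, Gdf15, Eda2r and Sesn2. The other Cdkn1a window, chr17:29093519-29093818, at a start further downstream, held none either, so the Cdkn1a distance is to the upstream start. This says only that these letters are not in those windows. The window with the Cdkn1a site is given with the match in capitals, and the first Gdf15 window, of the gene called in most of the comparisons over 14 libraries and in 1 over all 18, with the bases from the start onward in capitals.
Cdkn1a, chr17:29090729-29091028, plus strand: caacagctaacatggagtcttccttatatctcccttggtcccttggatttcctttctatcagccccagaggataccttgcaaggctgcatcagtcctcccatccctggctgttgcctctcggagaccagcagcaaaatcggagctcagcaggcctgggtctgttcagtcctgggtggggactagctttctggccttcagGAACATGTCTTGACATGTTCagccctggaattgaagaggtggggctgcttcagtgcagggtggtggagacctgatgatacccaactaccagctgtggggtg
Gdf15, chr8:70632407-70632706, minus strand: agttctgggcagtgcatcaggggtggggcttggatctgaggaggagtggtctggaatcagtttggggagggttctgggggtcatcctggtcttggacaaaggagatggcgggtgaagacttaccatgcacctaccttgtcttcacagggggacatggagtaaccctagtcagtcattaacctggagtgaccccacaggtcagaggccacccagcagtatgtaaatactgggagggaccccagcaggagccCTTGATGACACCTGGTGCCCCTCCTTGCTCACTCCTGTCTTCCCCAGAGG

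Libraries held 31509607 to 52030066 counts and 16846 to 21528 detected genes. All 8 alveolar type 2 markers were detected in each library. A group of 4 libraries, CHIR 1, CHIR 3, FZD6 agonist 1 and 24 h withdrawal 2, stood apart, with a median correlation with the others of 0.782 to 0.950, against 0.966 to 0.982 in the other 14. Sftpc, the surfactant protein C gene, took 9.11% to 13.05% of their counts, against 3.95% to 5.63%. Their summed alveolar type 2 markers were 117240 to 157178 CPM (counts on library sizes scaled to CPM), against 59239 to 82956 CPM. These sums are mostly Sftpc, which ran from 36668 to 144814 CPM over the 18 libraries. The next highest marker, Sftpa1, reached 18221 CPM. Abca3 and Lamp3 had medians of 1457 and 1282 CPM and lowest values of 190 and 104 CPM. The sums therefore do not tell whether type 2 markers other than Sftpc were higher in the 4 libraries. Summed alveolar type 1 markers overlapped between the 4 and the 14 (4044 to 9428 against 3331 to 8314 CPM), as did club and secretory markers (46.2 to 1011 against 46.4 to 650 CPM). Within these, the club cell gene Scgb1a1 was at 79.8 CPM in FZD6 agonist 1, at 50.7 CPM in CHIR 3 and at 38.6 CPM in 24 h withdrawal 2, against at most 0.947 CPM elsewhere. Basal cell markers summed to 12.6 CPM in FZD6 agonist 1 and 3.03 CPM in CHIR 3, against 0.109 CPM in CHIR 1, 0 in 24 h withdrawal 2 and at most 0.105 CPM in the other 14. Mitochondrial genes took 4.13% and Malat1, a nuclear RNA, 3.64% of the counts of 24 h withdrawal 2, against at most 0.718% and 0.367% in the other 17, and that library had the fewest detected genes. Ciliated, fibroblast and endothelial markers summed to at most 1.10 CPM in any library and haematopoietic ones to at most 13.6 CPM, with Cdh5, Kdr, Col1a2 and Col3a1 at 0 throughout. The female-specific RNA Xist had 0 to 4 counts in the same 3 libraries with Scgb1a1, against 251 to 812 in the other 15. Each result is therefore given over all 18 libraries and over the 14 that remain without these 4. In the 14, CHIR is the single library CHIR 2 and is assumed to vary like the other groups. A single library cannot check this, and p-values against CHIR 2 rest on it. Between CHIR libraries, chi-square per degree of freedom of the counts was 348 to 456, with a library that stands apart in every pair. Within the Wnt, FZD5 agonist and 48 h groups it was 7.08 to 68.0.

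Per kilobase of gene width, Cdkn1a had the highest mean level of the 10 genes in each of the 6 groups except 48 h withdrawal, at 76.9 CPM per kb with Wnt, 99.7 with the FZD5 agonist, 97.9 with the FZD6 agonist, 90.7 with CHIR and 106 after 24 h. After 48 h withdrawal it had 49.3 CPM per kb, close to Ccng1 at 51.6 CPM per kb. Mdm2 stood between 31.1 and 39.2 CPM per kb in the 6 groups. Eda2r, a receptor of the tumour necrosis factor family, was lowest in each group, at 0.0927 to 0.399 CPM per kb.

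Across the 14 libraries the genes ran from steady to varying. Mdm2 spanned 92.4 to 115 CPM, a 1.24-fold range, and Ccng1 144 to 210 CPM, a 1.46-fold range. Phlda3, Aen, Zmat3 and Sesn2 spanned 1.69-fold, 1.79-fold, 1.92-fold and 2.23-fold ranges. Gdf15 spanned 4.95 to 46.6 CPM, a 9.40-fold range, Cdkn1a 64.5 to 344 CPM, a 5.33-fold range, and Trp53inp1 18.6 to 65.4 CPM, a 3.51-fold range. Eda2r spanned an 11.7-fold range, from 0.0960 CPM, the level of 4 counts.

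**Figure D1:**
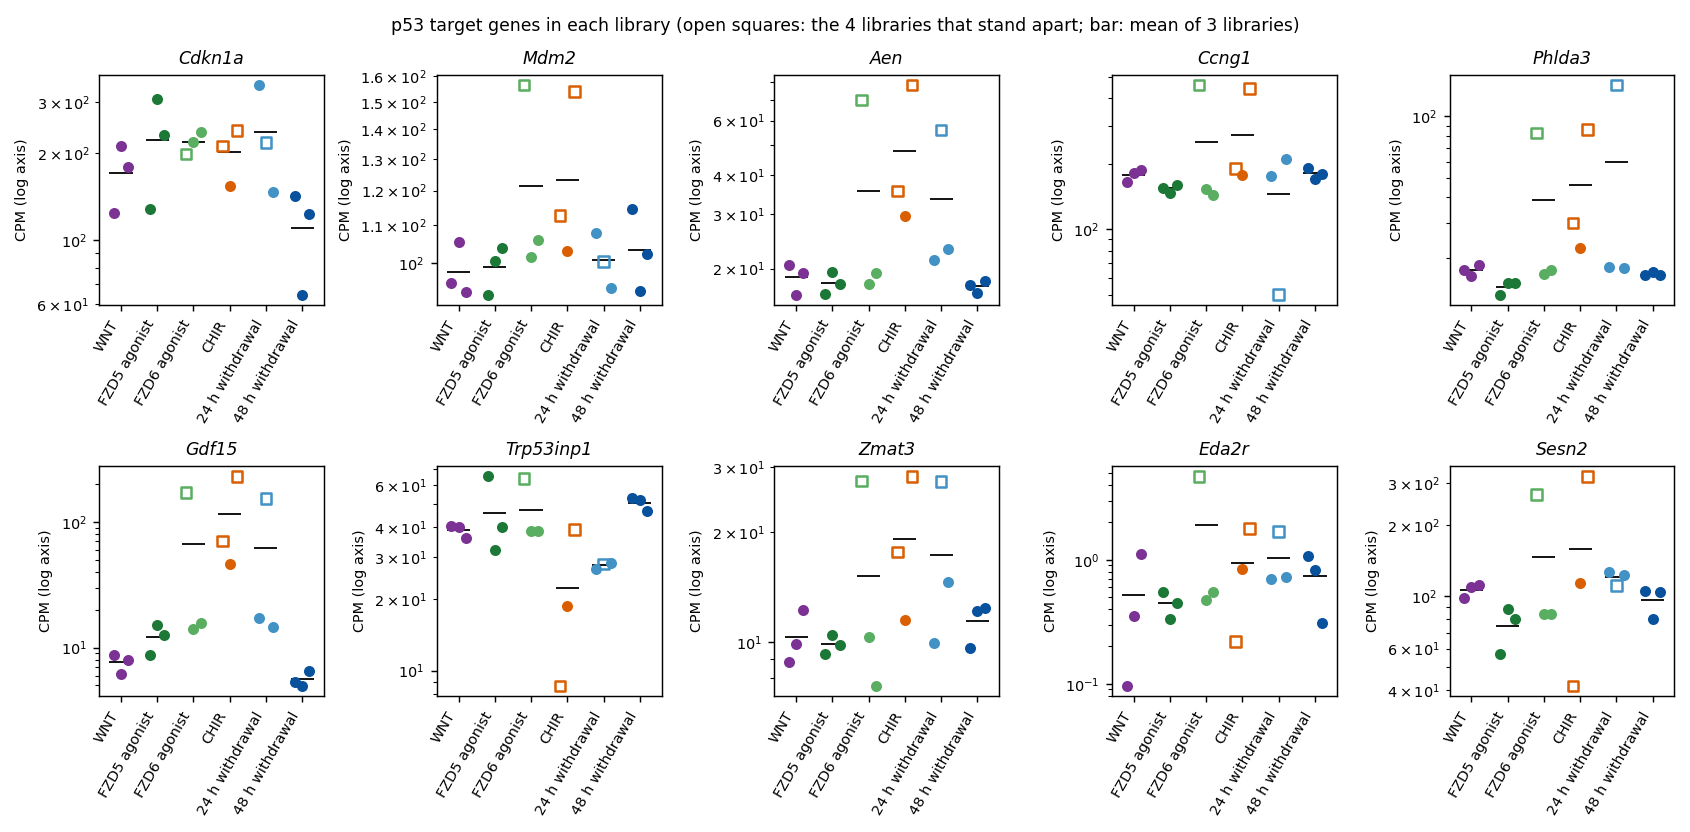
CPM of each of the 10 genes (vertical log axis) in each library by group. Points are libraries, open squares the 4 libraries that stand apart, and bars the mean of 3. Gdf15 is at 4.95 to 6.52 CPM after 48 h withdrawal, and its 4 highest values, 70.4 to 231 CPM, are all open squares.

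Several of the targets were highest in the libraries that stand apart. CHIR 3 and FZD6 agonist 1 each lay above all 14 other libraries for 8 of the 10 genes (80.0%), where 25.7% and 23.5% of all 16497 genes tested did so. The count was 5 of 10 in 24 h withdrawal 2, against 36.7% of all genes, and 4 of 10 in CHIR 1, against 30.5%. In CHIR 3 and FZD6 agonist 1, 24 and 22 of the 26 ATF4 targets described below also lay above all 14. Of 36 further p53 targets, 17 and 18 did so. In 24 h withdrawal 2 and CHIR 1 the counts were 15 and 9 of the 26, and 13 and 5 of the 36. Such high values were therefore not limited to the 10 genes. Gdf15, a secreted stress cytokine, was 11.5 times the mean of the other 2 libraries of its group in FZD6 agonist 1, 9.67 times in 24 h withdrawal 2 and 3.94 times in CHIR 3. Phlda3, a repressor of Akt signalling, was 4.84, 7.91 and 3.30 times that mean in the same libraries. Cdkn1a was not raised in this way: it was at 0.873, 0.886 and 1.31 times that mean. Ccng1 (cyclin G1) was split, at 3.11 times in FZD6 agonist 1, 2.41 times in CHIR 3 and 0.260 times in 24 h withdrawal 2. High Scgb1a1, high Sftpc and low Xist went with these values in FZD6 agonist 1, CHIR 3 and 24 h withdrawal 2. Basal markers went with them in FZD6 agonist 1 and CHIR 3 but were at 0 in 24 h withdrawal 2, where the mitochondrial and Malat1 shares were high. In CHIR 1 Sftpc was high, while Scgb1a1 was at 0.246 CPM and Xist at 812 counts. The part of these in the values was not tested.

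Withdrawal of CHIR99201 asks which of these genes change once that compound is removed. Gdf15 (chr8:70629393-70632456 on GRCm38, minus strand) had 70.4, 46.6 and 231 CPM in the CHIR libraries, 17.4, 154 and 14.5 CPM after 24 h and 5.37, 4.95 and 6.52 CPM after 48 h. Every 48 h library lay below every CHIR and every 24 h library. After 48 h Gdf15 had fallen below CHIR over 18 libraries, with a log2 fold change of -4.37 (SE 1.08, edgeR adjusted p = 0.0445). It was the 1 gene of the 10 called, where 2.59% of all genes tested were called. The call was lost in 11 of 18 fits that left out a single library, with adjusted p up to 0.196: without CHIR 1, CHIR 3 or any 1 of the Wnt, FZD5 agonist or 48 h libraries. The log2 fold change was -3.37 without CHIR 3, a smaller fall, and stayed between -4.62 and -4.28 in the other 10.

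Over the 14 libraries the fall of Gdf15 was graded: log2 fold change -1.54 after 24 h (SE 0.251, edgeR adjusted p = 0.00386) and -3.03 after 48 h (SE 0.229, adjusted p = 5.09e-07), both relative to CHIR 2. After 48 h relative to 24 h it was -1.49 (SE 0.203, adjusted p = 0.000186), and this comparison does not rest on CHIR. The calls were 1 of 10 genes for 24 h against CHIR, 4 of 10 for 48 h against CHIR and 2 of 10 for 48 h against 24 h, where 4.5%, 27.5% and 18% of all genes were called. The counts thus exceed these shares by few genes. Over 18 libraries edgeR called no member for 24 h against CHIR or for 48 h against 24 h, where 0% and 0.0485% of all genes were called, while DESeq2 called 0 and 1. At unadjusted p under 0.05 stood 0 and 4 of the 10, where 17% and 18% of all genes did.

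Trp53inp1 (chr4:11156431-11174379, plus strand), a stress protein that acts in autophagy and cell death, moved the other way. Its values were 8.62, 18.6 and 39.1 CPM with CHIR, 26.8, 28.1 and 28.3 CPM after 24 h and 52.9, 51.8 and 46.6 CPM after 48 h. The 48 h libraries lay above the other 6. Over 14 libraries it rose after 48 h relative to CHIR 2, by a log2 fold change of 1.46 (SE 0.316, edgeR adjusted p = 0.00521), and relative to 24 h (0.88, SE 0.234, adjusted p = 0.0245). With CHIR 1 added to the fit, the second of these was not called (adjusted p = 0.117), at the same log2 fold change of 0.88. Over 18 libraries the value against CHIR was 1.19 (SE 0.403, adjusted p = 0.135).

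Aen (chr7:78895854-78911209, plus strand), a nuclease of the apoptotic pathway, had 17.7, 16.7 and 18.3 CPM after 48 h, while the CHIR libraries had 35.5, 29.5 and 78.1 CPM. Phlda3 (chr1:135766119-135769136, plus strand) had 16.5, 17.1 and 16.6 CPM, against 29.9, 22.4 and 86.3 CPM. In both genes the 48 h values were close together and all below the CHIR values. Over 14 libraries both fell after 48 h relative to CHIR 2, Aen by 0.73 (SE 0.135, edgeR adjusted p = 0.000836) and Phlda3 by 0.40 (SE 0.121, adjusted p = 0.0222) on the log2 scale. Over 18 libraries neither was called (log2 fold change -1.44, adjusted p = 0.152, and -1.47, adjusted p = 0.361).

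The fit of 15 libraries that kept CHIR 1, chosen after the data were seen, has 2 CHIR libraries. There the same 4 genes were called for 48 h against CHIR: Gdf15 at -3.36 (edgeR adjusted p = 3.86e-06), Trp53inp1 at 1.91 (adjusted p = 0.000697), Aen at -0.87 (adjusted p = 0.00032) and Phlda3 at -0.63 (adjusted p = 0.00285). Of all genes, 31.8% were called in that comparison. In this fit 2 of 10 genes were called for 24 h against CHIR and 1 for 48 h against 24 h, where 5.8% and 5.98% of all genes were. Against 48 h it called 1 with the FZD5 agonist, 1 with the FZD6 agonist and 0 with Wnt (4.64%, 3.77% and 0% of all genes), each time Gdf15. Against 24 h it called 1 with Wnt, also Gdf15, and 0 with either agonist (3.6%, 0.173% and 0.0478%). Against CHIR it called 4 with each ligand (30%, 24% and 14.2% for Wnt, the FZD5 agonist and the FZD6 agonist). It called 0 of 10 for the FZD5 or the FZD6 agonist against Wnt (4.5% and 2.82%) and for the FZD5 against the FZD6 agonist (0%).

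Cdkn1a (chr17:29090976-29100727, plus strand), which encodes the cyclin-dependent kinase inhibitor p21, did not pass the test in any comparison with edgeR. It had 212, 154 and 240 CPM with CHIR, 344, 217 and 146 CPM after 24 h and 142, 64.5 and 122.8 CPM after 48 h. The 48 h values were the lowest 3 of the 9. The 48 h against 24 h log2 fold change was -1.11 over 18 libraries (SE 0.374, edgeR adjusted p = 0.193) and -1.15 over 14 (SE 0.492, adjusted p = 0.156). With limma voom and quality weights it was -1.10 (adjusted p = 0.0213) over 18 libraries, so the call depends on the model. An antisense gene overlaps Cdkn1a, and whether counting used strand is not given.

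Mdm2 (chr10:117688875-117710758, minus strand), the feedback regulator, stood at 115, 93.4 and 102 CPM after 48 h, while the CHIR libraries had 113, 103 and 154 CPM. Apart from CHIR 3 the libraries of both groups overlapped, and the log2 fold change was 0.02 over 14 libraries (SE 0.117) and -0.25 over 18 (SE 0.196). Ccng1 (chr11:40748552-40755311, minus strand), Zmat3 (chr3:32334792-32366014, minus strand), an RNA-binding regulator of splicing, and Eda2r (chrX:97333840-97377216, minus strand) were at log2 fold changes of 0.05, 0.01 and -0.16 over 14 libraries, with standard errors of 0.107, 0.233 and 0.816. Sesn2 (chr4:132492032-132510501, minus strand), which senses leucine and restrains mTORC1, was at -0.21 (SE 0.192). None of these 5 passed the test after 48 h relative to CHIR over 14 or 18 libraries.

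**Figure D2:**
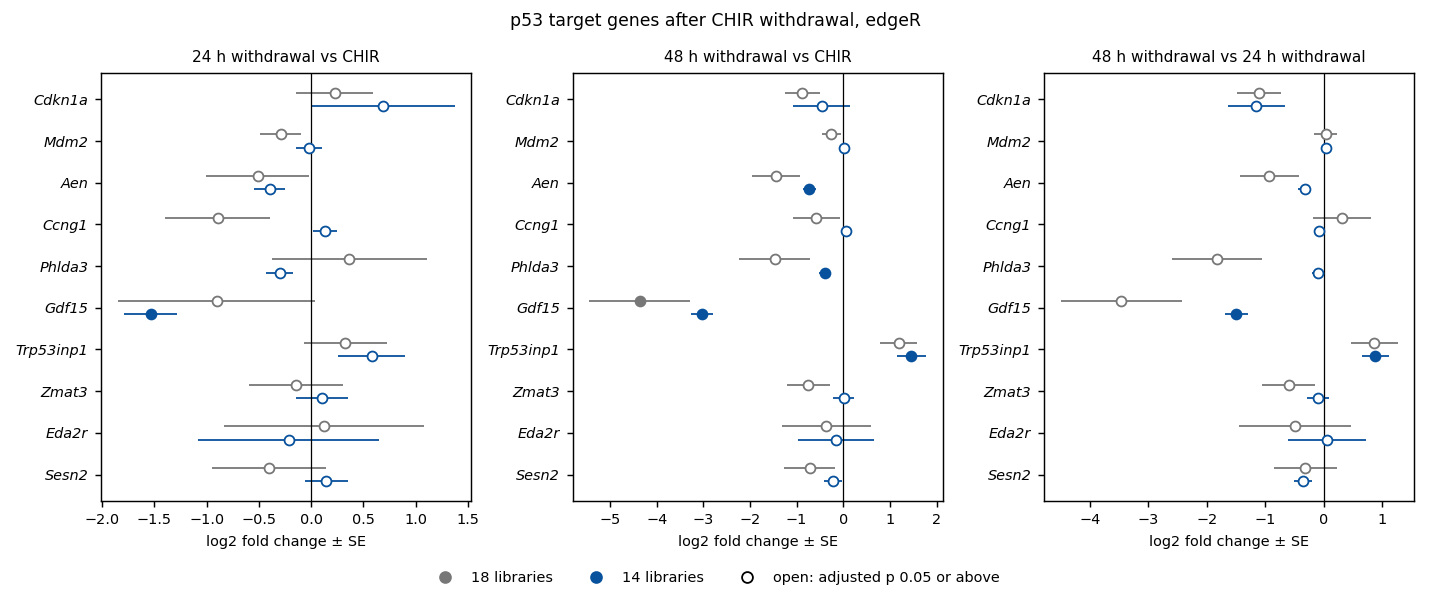
Log2 fold changes of the 10 genes (horizontal axis, with SE) for the withdrawal comparisons over 18 libraries in grey and 14 in blue, with filled points where the adjusted p was under 0.05. Gdf15 lies at -4.37 over 18 libraries and -3.03 over 14 for 48 h against CHIR, and Trp53inp1 on the other side at 1.46 over 14.

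Adding a ligand in place of CHIR99201 asks whether Wnt or a single Frizzled restores what withdrawal changed. Gdf15 had 8.68, 15.1 and 12.6 CPM with the FZD5 agonist and 171, 13.99 and 15.8 CPM with the FZD6 agonist, against 5.37, 4.95 and 6.52 CPM after 48 h. All libraries of both agonists lay above all 48 h libraries. With Wnt it had 8.76, 6.20 and 7.99 CPM, which overlapped the 48 h values.

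Over 14 libraries Gdf15 rose relative to 48 h with the FZD5 agonist (log2 fold change 1.12, SE 0.187, edgeR adjusted p = 0.000947) and with the FZD6 agonist (1.41, SE 0.203, adjusted p = 0.000344). The value with Wnt was 0.46 (SE 0.189, adjusted p = 0.63). The calls were 1 of 10 genes with the FZD5 agonist and 2 of 10 with the FZD6 agonist, against 15.7% and 12.1% of all genes. With Wnt none of the 10 was called (1 at unadjusted p under 0.05, where 7.71% of all genes were) and 0% of all genes were. Over 18 libraries no member was called in these 3 comparisons, where 0%, 0.0121% and 0% of all genes were called for the FZD5 agonist, the FZD6 agonist and Wnt. At unadjusted p under 0.05 stood 1, 2 and 0 of the 10, where 2.38%, 4.04% and 0.212% of all genes did, and DESeq2 called 0, 1 and 0 of the 10. The Gdf15 values over 18 libraries were 1.11 (adjusted p = 1) and 3.58 (adjusted p = 0.727) for the FZD5 and FZD6 agonists.

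The difference between the agonists and Wnt was tested directly, in comparisons added after the data were seen. Over 14 libraries Gdf15 was higher with the FZD6 agonist than with Wnt (log2 fold change 0.96, SE 0.199, edgeR adjusted p = 0.00585) and with the FZD5 agonist than with Wnt (0.66, SE 0.182, adjusted p = 0.0217). FZD5 agonist 1, at 8.68 CPM, lay just below Wnt 1, at 8.76 CPM, so these groups overlap. Both calls were lost with CHIR 1 added to the fit (adjusted p = 0.0534 for the FZD6 agonist and 0.117 for the FZD5 agonist), at nearly the same log2 fold changes. In these comparisons 1 and 3 of 10 genes were called, against 11.8% and 16.7% of all genes. Over 18 libraries edgeR called none of the 10 in either, where 0% of all genes were called in both. An unadjusted p under 0.05 was found for 1 and 0 of the 10 and for 3.67% and 2.5% of all genes, and DESeq2 called 0 of the 10 in both.

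Between the FZD5 agonist and the FZD6 agonist no difference in any of the 10 genes passed the test. For Gdf15 the FZD5 over FZD6 log2 fold change was -0.29 over 14 libraries (SE 0.198, edgeR adjusted p = 1) and -2.47 over 18 (SE 0.991, adjusted p = 1). None of the 10 was called over 14 or 18 libraries (0 with DESeq2), where 0.00574% and 0% of all genes were. An unadjusted p under 0.05 was found for 1 of the 10 in each, and for 3.06% and 0.994% of all genes.

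The other call with the FZD6 agonist was Ccng1, which fell relative to 48 h by 0.28 on the log2 scale over 14 libraries (SE 0.0849, edgeR adjusted p = 0.0415). Its values were 461, 153 and 144 CPM with the FZD6 agonist, against 193, 171 and 180 CPM after 48 h. FZD6 agonist 1 is above, and the other 2 below, every 48 h library, so the sign turns over 18 libraries. With CHIR 1 added to the 14 libraries the adjusted p was 0.206. With the FZD5 agonist the 3 values were 156, 148 and 160 CPM, all below the 48 h values, with a log2 fold change of -0.22 over 14 libraries (SE 0.0755, adjusted p = 0.0579).

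Sesn2 and Phlda3 were lower with the FZD5 agonist than with Wnt over 14 libraries. Sesn2 had 56.8, 88.0 and 80.0 CPM, against 97.7, 109 and 112 CPM with Wnt (log2 fold change -0.51, SE 0.138, edgeR adjusted p = 0.0250). Phlda3 had 13.3, 15.1 and 15.1 CPM, against 17.6, 16.4 and 18.5 CPM (-0.28, SE 0.0885, adjusted p = 0.0426). In both genes the groups did not overlap. Sesn2 was also lower with the FZD5 agonist than after 24 h (-0.71, SE 0.152, adjusted p = 0.0230). None of these 3 calls held with CHIR 1 added to the fit (adjusted p = 0.376, 0.234 and 0.508), at log2 fold changes of -0.51, -0.28 and -0.72.

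Cdkn1a had 128, 307 and 230 CPM with the FZD5 agonist and 198, 218 and 236 CPM with the FZD6 agonist, against 142, 64.5 and 122.8 CPM after 48 h. The FZD6 agonist libraries lay above the 48 h ones, while FZD5 agonist 1 lay among them. The log2 fold changes were 1.02 (SE 0.373, edgeR adjusted p = 1) and 0.99 (SE 0.373, adjusted p = 1) over 18 libraries. With limma voom and quality weights they were 0.996 (adjusted p = 0.0167) and 1.02 (adjusted p = 0.0121). Over 14 libraries edgeR gave adjusted p = 0.178 and 0.220.

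**Figure D3:**
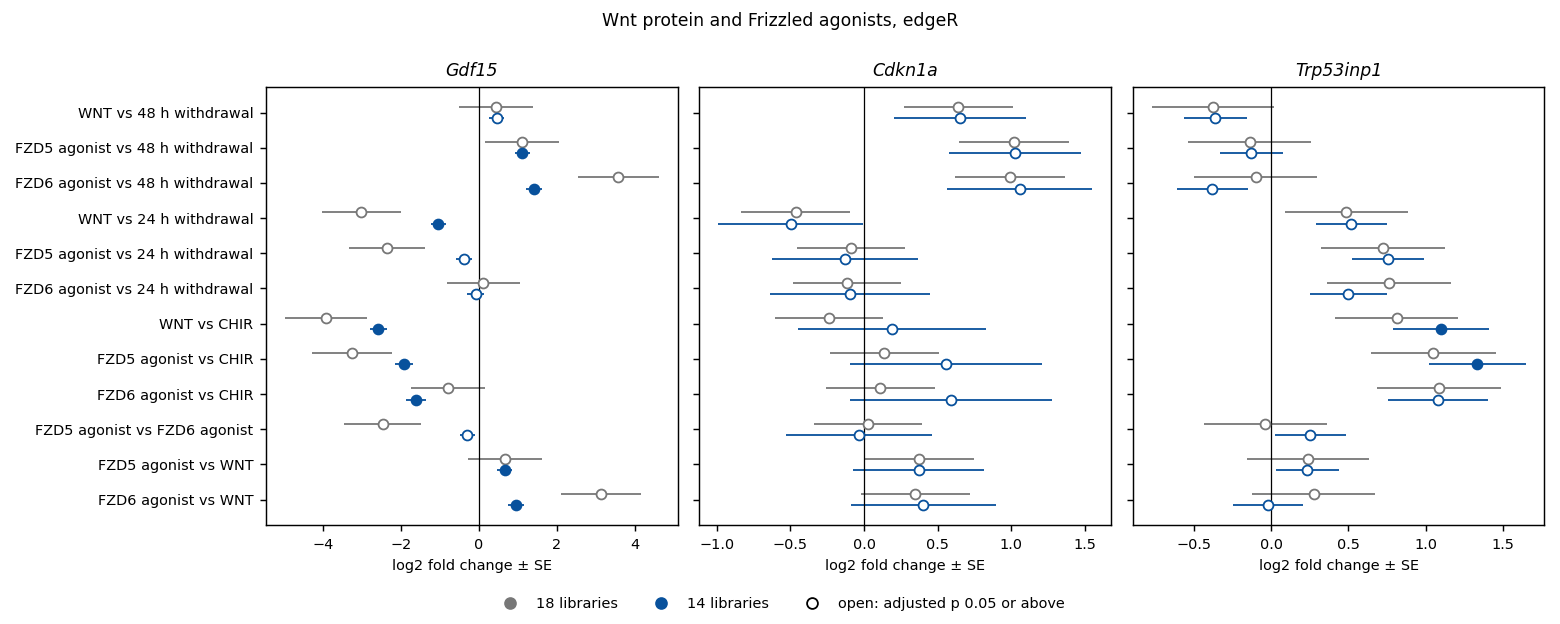
Log2 fold changes of Gdf15, Cdkn1a and Trp53inp1 (horizontal axis, with SE) for the ligand comparisons over 18 libraries in grey and 14 in blue. Points are filled where the adjusted p was under 0.05. Gdf15 is at 1.12 with the FZD5 agonist and 1.41 with the FZD6 agonist against 48 h over 14 libraries, and at 0.46 with Wnt.

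Against 24 h withdrawal the difference in Gdf15 with either agonist did not pass the test: the log2 fold changes over 14 libraries were -0.37 with the FZD5 agonist (SE 0.198, edgeR adjusted p = 0.346) and -0.08 with the FZD6 agonist (SE 0.217, adjusted p = 0.927). With Wnt it was lower than after 24 h (-1.04, SE 0.199, adjusted p = 0.00324). Each of Wnt and the FZD5 agonist had 1 of 10 genes called, against 13.6% and 4.23% of all genes. The FZD6 agonist had none, against 0.677% (3 at unadjusted p under 0.05, where 12.5% of all genes were). Over 18 libraries edgeR called none of the 10 in these 3 comparisons, where 0.0303%, 0.00606% and 0% of all genes were called for Wnt, the FZD5 agonist and the FZD6 agonist. An unadjusted p under 0.05 was found for 2, 2 and 0 of the 10 and for 16.3%, 17.6% and 15.3% of all genes, and DESeq2 called 1, 0 and 0 of the 10.

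Against CHIR, each ligand left Gdf15 lower: over 14 libraries the log2 fold change was -2.57 with Wnt (SE 0.227, edgeR adjusted p = 2.36e-06), -1.91 with the FZD5 agonist (SE 0.228, adjusted p = 0.000113) and -1.62 with the FZD6 agonist (SE 0.251, adjusted p = 0.00108). Aen was lower as well, by 0.62, 0.68 and 0.64 in the same order (adjusted p = 0.00312, 0.00364 and 0.0127). Trp53inp1 was higher with Wnt (1.10, adjusted p = 0.0222) and with the FZD5 agonist (1.33, adjusted p = 0.0177). Phlda3 was lower with the FZD5 agonist (-0.60, adjusted p = 0.00407). These are 3, 4 and 2 of 10 genes, against 26.6%, 13.6% and 8.48% of all genes. Over 18 libraries edgeR called none of the 10, where 1.92%, 0.00606% and 0.00606% of all genes were called. At unadjusted p under 0.05 stood 2, 4 and 1 of the 10, where 14.5%, 13.5% and 6.47% of all genes did, and DESeq2 called 1, 1 and 0 of the 10. The nearest was Gdf15 with Wnt (-3.92, SE 1.06, adjusted p = 0.0703). With the FZD6 agonist the values over 18 libraries were -0.79 for Gdf15 (SE 0.943, edgeR adjusted p = 0.922) and -0.42 for Aen (SE 0.495, adjusted p = 0.920). In both genes the FZD6 agonist and CHIR libraries overlapped. FZD6 agonist 1, at 171 CPM of Gdf15, lay above CHIR 1 at 70.4 CPM and CHIR 2 at 46.6 CPM.

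In order over the 14 libraries, mean Gdf15 was 5.62 ± 0.814 CPM after 48 h (SD, n = 3), 7.65 ± 1.31 with Wnt (n = 3), 12.1 ± 3.22 with the FZD5 agonist (n = 3), 14.9 ± 1.28 with the FZD6 agonist (n = 2), 15.9 ± 2.04 after 24 h (n = 2) and 46.6 in CHIR 2. Of the neighbours in that order, the FZD5 agonist and Wnt differed in the fit of 14 libraries, as did CHIR 2 and 24 h. Wnt and 48 h, whose libraries overlapped, did not pass the adjusted test (unadjusted p = 0.0288, adjusted p = 0.63), nor did the pair of agonists or 24 h and the FZD6 agonist. Over all 18 libraries the means of the groups holding a library apart carry its value, at 67.0 ± 90.3 CPM with the FZD6 agonist, 116 ± 100.1 with CHIR and 61.9 ± 79.7 after 24 h (SD, n = 3 each).

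Trp53, the p53 gene itself, had 42.1, 44.8 and 42.6 CPM with the FZD5 agonist and 41.1, 45.8 and 42.8 CPM with the FZD6 agonist, against 33.7, 36.7 and 31.5 CPM after 48 h. All agonist libraries lay above all 48 h libraries. Over 14 libraries Trp53 rose by 0.36 (SE 0.0770, edgeR adjusted p = 0.00505) and 0.39 (SE 0.0852, adjusted p = 0.00665) on the log2 scale. After 48 h it was lower than in CHIR 2 (-0.74, SE 0.104, adjusted p = 7.48e-05), and after 24 h it was too (-0.65, adjusted p = 0.00490). Over 18 libraries Trp53 was not called after 48 h or 24 h relative to CHIR (-0.52, adjusted p = 0.0936, and -0.48, adjusted p = 0.198). Mdm4 was lower after 48 h than in CHIR 2 (-0.36, adjusted p = 0.0357), but over 18 libraries the value was 0.03 (adjusted p = 0.980), with 25.2, 24.8 and 23.2 CPM after 48 h and 26.3, 31.9 and 13.6 CPM in the CHIR libraries.

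Of 21 regulators of p53 and DNA damage kinases, 18 were tested over 14 libraries. After 48 h 2 were higher and 7 lower than in CHIR 2, with a median log2 fold change of -0.23, where the median of all genes was 0.01 and 27.5% of all genes were called. With the FZD5 agonist and with the FZD6 agonist 4 were higher than after 48 h and none lower, Trp53 among them, where 15.7% and 12.1% of all genes were called. Chek1, a kinase of the replication checkpoint, fell after 48 h relative to CHIR 2 (-1.42, edgeR adjusted p = 1.91e-05). It rose by 0.69 with the FZD5 agonist and 0.94 with the FZD6 agonist relative to 48 h. The proliferation marker Mki67 was at 119 to 163 CPM with the FZD5 agonist and 36.5, 163 and 126 CPM with the FZD6 agonist, against 51.2 to 64.8 CPM after 48 h. It was at 207, 189 and 15.3 CPM in CHIR 1, CHIR 2 and CHIR 3, and at 104, 25.1 and 146 CPM after 24 h. The part of Mki67 in these values was not tested. None of 19 tested over 18 libraries was called by edgeR for 48 h against CHIR (2 at unadjusted p under 0.05, where 16.5% of all genes were) or for the FZD5 or FZD6 agonist against 48 h (1 in each, where 2.38% and 4.04% were).

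A further 37 p53 targets, of which 36 were tested, went both ways. After 48 h 7 were higher and 6 lower than in CHIR 2 over 14 libraries, with a median log2 fold change of -0.04, where 27.5% of all genes were called. Bbc3, which encodes the cell death protein PUMA, rose (1.01, edgeR adjusted p = 8.77e-05), as did Dram1, an autophagy regulator (0.58, adjusted p = 0.000543). Gtse1, a cell cycle gene expressed in S and G2 phase, fell (-1.77, adjusted p = 1.66e-05), as did Gls2, a mitochondrial glutaminase (-2.79, adjusted p = 0.000128). With the FZD5 agonist 3 were higher and 2 lower than after 48 h, with a median of 0.05, and with the FZD6 agonist 3 were higher and 1 lower, with a median of 0.03. These shares are no larger than those of all genes, 15.7% and 12.1%. Fas, the death receptor, fell with both, by 0.37 (adjusted p = 0.0269) and 0.49 (adjusted p = 0.0142). Over 18 libraries 1 of the 36 was called after 48 h relative to CHIR, the antiproliferative gene Btg2, which rose (1.18, SE 0.220, adjusted p = 0.0121), and none for the FZD5 or FZD6 agonist against 48 h (2 and 5 at unadjusted p under 0.05, where 2.38% and 4.04% of all genes were).

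The 26 targets of ATF4 were described because Gdf15 and Sesn2 are known to answer to ATF4 too. The part of ATF4 in the values of these 2 genes was not tested. After 48 h 16 were lower and none higher than in CHIR 2 over 14 libraries, with a median log2 fold change of -1.73, where 27.5% of all genes were called. Over 18 libraries 9 were lower and none higher, with a median of -2.42, where 2.59% of all genes were called. For 48 h against 24 h 14 were lower and none higher over 14 libraries (median -1.59), where 18% of all genes were called. Over 18 libraries edgeR called none of the 26 for 48 h against 24 h, with 22 at unadjusted p under 0.05, where 18% of all genes were. Phgdh, the first enzyme of serine synthesis, had a log2 fold change of -3.10 after 48 h relative to CHIR 2 (edgeR adjusted p = 2.8e-08), and Shmt2, which makes mitochondrial one-carbon units, -2.27 (adjusted p = 1.18e-08).

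With the FZD5 agonist 15 of the 26 were higher and none lower than after 48 h (median 1.10), and with the FZD6 agonist 11 were higher and none lower (median 1.03), where 15.7% and 12.1% of all genes were called. With Wnt none was called against 48 h (1 at unadjusted p under 0.05, where 7.71% of all genes were, median 0.19). Phgdh averaged 7.34 ± 1.20 CPM with the FZD5 agonist and 2.73 ± 0.137 CPM after 48 h (SD, n = 3 each), a log2 fold change of 1.43 (SE 0.151, edgeR adjusted p = 1.68e-05). Over 18 libraries edgeR called none of the 26 with either agonist, while 12 with the FZD5 agonist and 22 with the FZD6 agonist had an unadjusted p under 0.05, where 2.38% and 4.04% of all genes did (medians 1.10 and 2.00). Over 14 libraries the median of the 10 p53 targets was -0.16 with the FZD5 agonist and -0.09 with the FZD6 agonist in the same comparisons, where the medians of all genes were 0.02 and -0.00463. Gdf15 was at 1.12 and 1.41 there, while Sesn2 was at -0.36 (SE 0.138) and -0.19 (SE 0.155), neither called. Sesn2 thus did not rise with the ATF4 list.

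**Figure D4:**
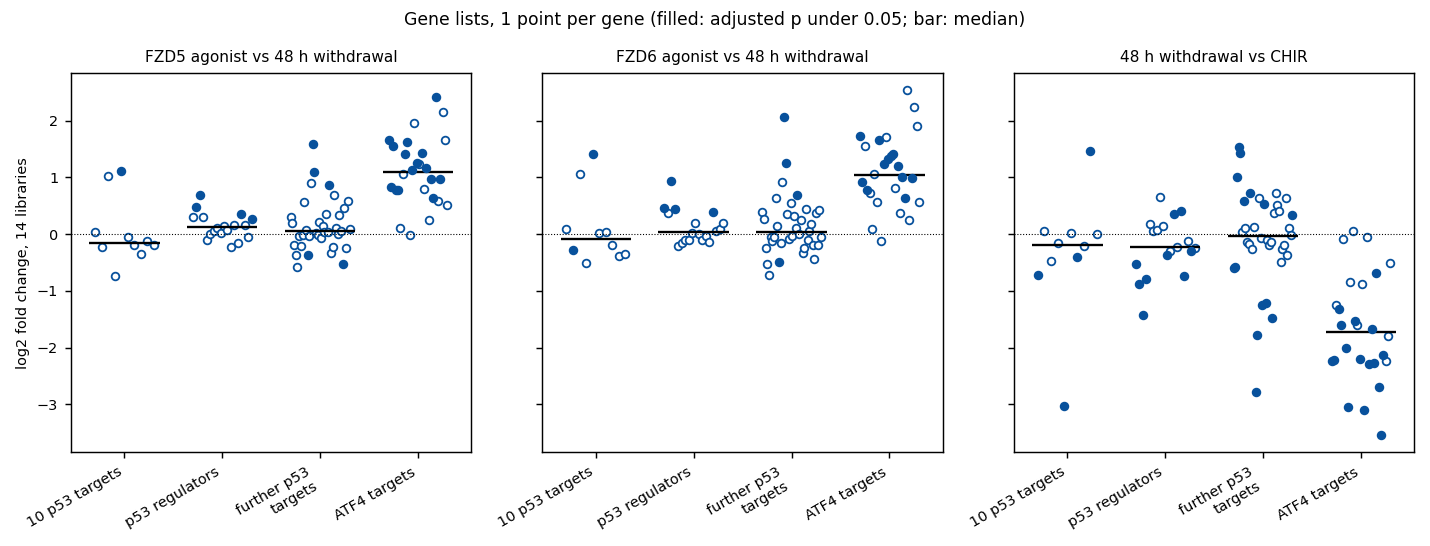
Log2 fold changes over 14 libraries (vertical axis) of each gene of the 4 lists for the FZD5 agonist and the FZD6 agonist against 48 h withdrawal and for 48 h against CHIR 2. The ATF4 targets lie mostly above 0 with both agonists (medians 1.10 and 1.03) and mostly below 0 after 48 h (-1.73). The medians of the p53 lists are between -0.23 and 0.12.

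The genes whose log2 CPM followed Gdf15 most closely over the 18 libraries, among 9970 compared, were Arl14ep, Sars, Oxnad1, Gpx2 and Rrs1, with Pearson's r of 0.962 to 0.971. Over the 14 libraries r was 0.826 to 0.928. For Cdkn1a they were Vldlr, Hilpda, Adm2, Upp1 and Stc2, with r of 0.823 to 0.898 over 18 libraries and 0.874 to 0.934 over 14. Vldlr and Stc2 are on the ATF4 list. These points share the same 6 treatments and the libraries that stand apart, and the genes were picked for the likeness.

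Among the 45 pairs of the 10 genes, 39 correlated positively over 18 libraries with a median r of 0.49, and 27 over 14 libraries with a median of 0.11. Aen and Gdf15 kept a high r, at 0.961 over 18 libraries and 0.823 over 14. Mdm2 and Aen did not, at 0.760 over 18 and -0.08 over 14. Trp53inp1 ran against Aen over 14 libraries (r = -0.88) and against Gdf15 (r = -0.83).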

How the data were processed

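RNA sequencing of 18 libraries, 3 in each of 6 treatment groups, was analysed. Per the labels' protocols, 0.1 µg of total RNA per library was the input of a TruSeq stranded library kit. The deposited files hold whole-number gene counts, the authors' RPKM values (not used here) and another column, the gene width in the deposited files. The submitters' processing notes name GSNAP and GRCm38, while their versions, the annotation, the counting tool and whether it used strand are not given here. Identifiers were matched to GENCODE M21 symbols (52403 of 52636). Promoter sequences are from RefSeq on GRCm38.p6.

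The 10 genes, the wider lists and the rules were chosen with earlier results of these data known. All members are named in the comparisons, with up to 4 called genes of smallest p per wider list, Trp53 and Mdm4. For likeness, the 5 genes of highest correlation were taken among genes averaging at least 2 in log2 CPM. Library-state genes were Sftpc, Scgb1a1, Mki67 and Xist, the last chosen after its values were seen.

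Counts were filtered with filterByExpr and tested with edgeR 4.0.16 in R 4.3.3 by glmQLFTest after a robust glmQLFit, with TMM factors, in 1 fit of 18 libraries, 16497 genes, and 1 of 14 libraries, 17433 genes. The FZD5 and FZD6 agonist comparisons with Wnt were added later. Calls are Benjamini-Hochberg adjusted p under 0.05 over all genes tested. SE is the log2 fold change over the square root of F. The scripts were tested on simulated data. CPM use TMM-scaled library sizes of the 18 libraries, and those of the wider lists over 14 libraries the sizes of that fit. Total counts of 31509607 to 52030066 put 3 counts at 0.0589 to 0.106 CPM, which covers counting error only. Alternatives were DESeq2 1.42.0, limma 3.58.1 voom with quality weights, RLE factors, no filter, 1 CPM in at least 3 libraries, the compared groups alone, a replicate block and single libraries left out.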

Additional observations from a re-analysis of the deposited data

How the results depend on the processing

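The number of the 10 genes called over 18 libraries depended on the model and on the 4 libraries that stand apart, and the cause was not tested. For 48 h against CHIR it was 1, and 2 with DESeq2, 3 with limma voom, 0 without a filter, 4 over 14 libraries, 4 over 15 and 0 to 2 with a single library left out. The replicate block left 0 (Gdf15 edgeR adjusted p = 0.0848). In their deviations from the group means, 4 of 45 same-numbered pairs correlated above 0.1, none of the comparisons in every pair. The libraries that stand apart weigh on these deviations, so this does not tell whether libraries of the same number were paired. In the other comparisons it was 0. For 24 h against CHIR it became 1 over 14 libraries and 2 over 15, and for 48 h against 24 h 1 with DESeq2, 3 with voom, 2 over 14 and 1 over 15. For the FZD5 agonist against 48 h it became 2 with voom, 1 with the compared groups alone, 1 over 14 and 1 over 15, and for the FZD6 agonist 1 with DESeq2, 2 with voom, 2 over 14 and 1 over 15. Against 24 h it became 1 for Wnt with DESeq2, voom, 14 and 15 libraries, and 1 for the FZD5 agonist over 14. Against CHIR it became 1 with DESeq2, 1 with voom, 3 over 14 and 4 over 15 for Wnt; 1, 1, 4 and 4 for the FZD5 agonist; and 2 over 14 and 4 over 15 for the FZD6 agonist. Against Wnt it became 1 with voom, 1 with the compared groups alone and 3 over 14 for the FZD5 agonist, and 1 with voom and 1 over 14 for the FZD6 agonist. Leaving out single libraries gave 0 to 1 for Wnt and for the FZD5 agonist against CHIR, and 0 in the comparisons not named.

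Signs turned for values not called over 18 libraries. With a single library left out, the log2 fold change ran from -1.36 (without FZD6 agonist 1) to 0.12 (without CHIR 3) for Aen and from -2.96 to 0.18 for Gdf15 with the FZD6 agonist against CHIR, and from -2.86 (without 24 h withdrawal 2) to 0.0719 (without CHIR 3) for Gdf15 after 24 h against CHIR. Ccng1 for the FZD6 agonist against 48 h turned to -0.26 with voom, -0.28 over 14 libraries, -0.28 over 15 and -0.29 without FZD6 agonist 1, and was up to 0.76 with another library left out. Over these libraries Eda2r, at 4 to 182 counts, is limited by depth.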
